A study of Arabidopsis thaliana with 12 samples.

Results

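The genotype comparison on indole-3-butyric acid (IBA) rests on 6 of the 12 arrays of the series. Of these, 3 arrays hold root tips of the triple mutant ibr1ibr3ibr10, in the Col-0 background, and 3 hold root tips of wild-type Col-0. The arrays were chosen by their labels alone: both groups spent 6 h on medium with 10 µM IBA. Seedlings of both genotypes had grown on Murashige and Skoog medium and were moved to fresh medium for the treatment. They were sampled 3 days after germination. Each replicate pooled at least 120 tips of the primary root, cut at about 4 mm, and the labels call the 3 replicates of a group independent. The other 6 arrays hold the same genotypes after 6 h on medium with the solvent DMSO, and serve here to show which differences were there without added IBA. All 22746 non-control probe sets were tested, and 13355 genes that have a probe set naming only that gene are described. Only these genes count as measured below, so a gene that is not measured may still lie on the array.

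IBA is a storage form of auxin with a longer side chain than indole-3-acetic acid (IAA), the active form. Peroxisomes shorten IBA to IAA by steps that resemble fatty acid beta-oxidation, and IBR1, IBR3 and IBR10 are enzymes of that conversion. IAA made in the root tip from IBA takes part in root hair elongation and in the priming of lateral roots. Auxin relieves the repression that Aux/IAA proteins exert on auxin response factors, and early targets of these factors include the GH3 enzymes, the Aux/IAA genes themselves and LBD transcription factors. IBR1, IBR3 and IBR10 have no probe set that names them alone and were not analysed here, so the mutant genotype was not checked on its own transcripts.

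Levels are log2 values that the authors normalised with RMA, so that 1 unit is a doubling, and a difference is the mutant mean minus the Col-0 mean. Each ± is the standard error of a difference between 3 and 3 arrays from a limma fit over all 12 arrays. A gene was called at an adjusted p under 0.05 (Benjamini-Hochberg over all tested probe sets, two-sided). Arrays of 1 genotype on IBA correlated at 0.9954 to 0.9970 over all probe sets, and arrays of different genotypes at 0.9879 to 0.9915. The spiked bacterial transcripts read 4.96 to 5.51 on average on the Col-0 arrays on IBA and 4.78 to 4.94 on the mutant arrays on IBA. These ranges do not overlap, but Col-0 array 3 (4.96) is close to mutant array 2 (4.94) and within the DMSO arrays (4.76 to 5.02). Col-0 arrays 1 and 2 (5.31 and 5.51) are the ones that stand apart. Scaling each array to its 24 spike probe sets therefore moved the median difference over all named genes from 0.00 to 0.41, so the directions of small differences hold only relative to the bulk of the transcripts.

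On IBA, 1333 of the 13355 genes were called, which is 9.98%. Of these, 743 were higher in the mutant (5.56% of all genes) and 590 were lower (4.42%). The counts within gene lists given below stand beside these shares. The large differences were mostly losses: 117 genes were lower by at least 1 log2 unit (0.876%) and 59 were higher by as much (0.442%). The single arrays of both genotypes did not overlap for 1317 of the 1333 called genes (9.86% of all genes). Called or not, 1605 genes were higher without overlap (12.0%) and 1405 lower (10.5%). On DMSO 272 genes were called (2.04%), 194 higher (1.45%) and 78 lower (0.584%). Of the 743 genes higher on IBA, 43 were also higher on DMSO, and of the 590 lower on IBA, 50 were also lower on DMSO. The genes called higher on IBA had a median difference of 0.48 on IBA and 0.03 on DMSO, and those called lower had -0.55 and -0.09. The difference itself was tested by subtracting the DMSO difference of a gene from its IBA difference. This test called 767 genes (5.74%), 388 upwards (2.91%) and 379 downwards (2.84%), and among them were 335 of the genes higher on IBA and 268 of those lower on IBA. For 366 higher and 292 lower genes neither the DMSO difference in that direction nor the difference between media was called. Over all probe sets, named or not, 2508 were called on IBA (11.0%), 1353 higher (5.95%) and 1155 lower (5.08%). The same count was 550 on DMSO (2.42%), with 413 higher (1.82%) and 137 lower (0.602%), and 1478 for the difference between media (6.50%), with 672 upwards (2.95%) and 806 downwards (3.54%).

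**Figure D1:**
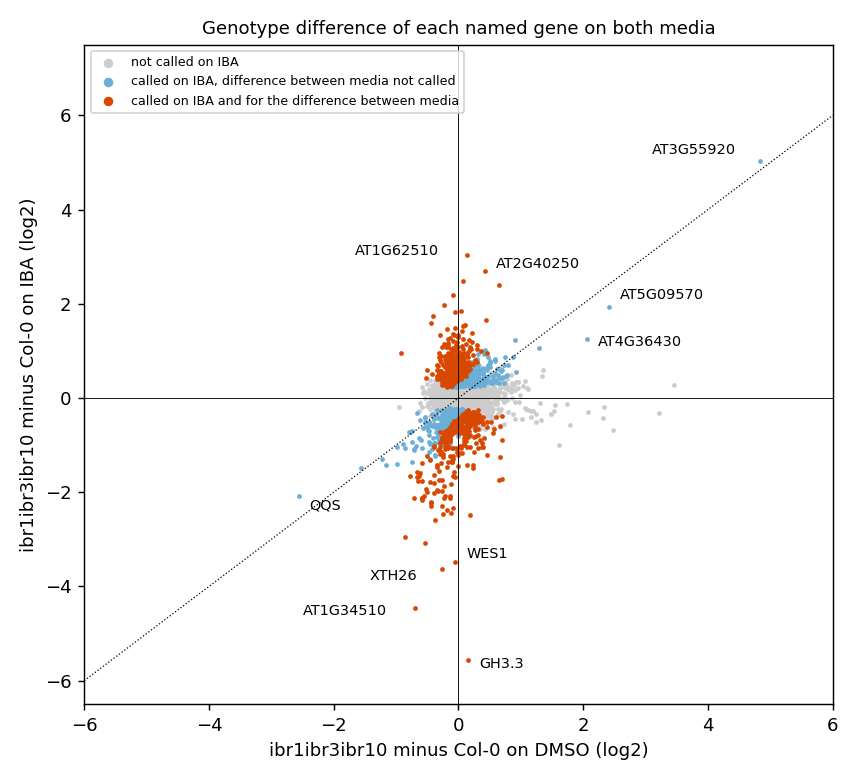
Genotype difference of each of 13355 named genes on DMSO (horizontal axis, log2) and on IBA (vertical axis, log2), 1 point a gene, from 3 arrays per group. GH3.3, XTH26 and WES1 lie far below 0 on IBA and within 0.26 of it on DMSO, and AT1G34510 lies at -4.46 on IBA and -0.70 on DMSO. AT3G55920, AT5G09570 and QQS lie near the dotted line of equal differences. Under scaling to the spikes all points move up by about 0.41 on the vertical axis. They also move left on the horizontal axis, where the median over all probe sets goes from -0.02 to -0.15.

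Genes that inactivate auxin held the largest loss. GH3 enzymes join IAA to amino acids and so lower free IAA. GH3.3 read 7.56, 7.77 and 8.46 in the Col-0 arrays on IBA and 2.51, 2.29 and 2.29 in the mutant arrays. The groups lie far apart, and the mutant level is below 3.24, the level under which the dimmest 30% of probe sets fall. The difference was -5.57 ± 0.18 (adjusted p = 1.05e-10), a 47.4-fold lower level, and -4.69 if the mutant mean is raised to 3.24. On DMSO the difference in GH3.3 was 0.16 and was not called (adjusted p = 0.77).

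WES1, the GH3.5 enzyme, read 8.27, 8.52 and 8.36 in Col-0 and 4.87, 4.91 and 4.93 in the mutant, a difference of -3.48 ± 0.11 (adjusted p = 1.01e-10). GH3.1 read 5.33, 5.47 and 5.37 in Col-0 and 3.89, 3.36 and 3.73 in the mutant, a difference of -1.73 ± 0.11 (adjusted p = 1.48e-07). Every mutant array was below every Col-0 array in both genes. GH3.17, a GH3 enzyme that uses glutamate, was lower by less (-0.56 ± 0.08, adjusted p = 0.000252), and that call was lost with spike scaling (-0.16, adjusted p = 0.379). Of the 10 measured members of the 17 listed genes of auxin inactivation, these 4 were lower, none was higher, and the median was -0.26 (0.15 with spike scaling, with 5 higher and 4 lower). The other members include the IAA oxidase loci AT1G14130 (0.06, adjusted p = 0.844) and AT1G14120. AT1G14120 read 5.14, 6.88 and 6.76 in Col-0 and 5.02, 5.56 and 5.21 in the mutant, so the groups overlap through Col-0 array 1 and the difference was not called (-0.99 ± 0.40, adjusted p = 0.156). UGT84B1, which glucosylates IAA, stood at 0.07 (adjusted p = 0.776), and UGT74D1, which glucosylates oxidised IAA, at 0.23 (adjusted p = 0.0537). All 4 lower members were GH3 genes.

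The Aux/IAA repressors followed with smaller differences. IAA31 read 3.61, 4.15 and 4.48 in Col-0 and 2.88, 2.83 and 2.86 in the mutant (-1.22 ± 0.18, adjusted p = 0.000317). IAA29 read 4.01, 3.71 and 4.23 against 3.01, 2.85 and 2.87 (-1.07 ± 0.11, adjusted p = 1.03e-05), and IAA30 read 3.56, 3.97 and 3.72 against 3.14, 3.18 and 3.1 (-0.61 ± 0.12, adjusted p = 0.00308). In all 3 genes the Col-0 arrays stood above the mutant arrays, which lie at or under the dim level. With dim means raised, IAA29 differed by -0.74, and with spike scaling IAA30 was no longer called (-0.20, adjusted p = 0.254). IAA30 and IAA31 are known as Aux/IAA proteins that lack the usual degradation motif. Of 7 measured Aux/IAA genes among 32 listed, these 3 were lower and none higher, and IAA18, IAA20, IAA33 and IAA34 were not called. The median was -0.29, which became 0.11 with spike scaling.

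The genes of lateral root founding and initiation also stood apart. LBD16 and LBD29 are transcription factors that act downstream of auxin response factors in the first divisions of a lateral root. LBD16 read 5.71, 5.43 and 5.92 in Col-0 and 3.33, 3.39 and 3.37 in the mutant, a 5.01-fold lower level (-2.33 ± 0.10, adjusted p = 2.73e-09). LBD29 read 4.27, 4.51 and 4.77 in Col-0 and 2.14, 2.61 and 2.52 in the mutant (-2.09 ± 0.16, adjusted p = 7.89e-07; -1.27 with the dim mutant mean raised). PUCHI, an AP2-type factor that limits cell division in the young primordium, read 3.87, 4.89 and 4.18 against 2.94, 2.91 and 2.82 (-1.42 ± 0.19, adjusted p = 0.000165). None of these groups of arrays overlap, and none of the 3 genes was called on DMSO (LBD16, -0.09; PUCHI, -0.35).

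AT5G66815, the locus of the peptide hormone CEP5 in that list, went the other way. It read 4.67, 4.46 and 4.51 in Col-0 on IBA and 6.25, 6.63 and 6.32 in the mutant (1.85 ± 0.10, adjusted p = 2.03e-08). On DMSO both genotypes read between 6.76 and 6.96, so the mutant on IBA lay near the DMSO level and Col-0 on IBA below it. Of 5 measured genes among 28 listed for lateral roots, 3 were lower, 1 was higher and the receptor kinase gene CR4 was not called (-0.27, adjusted p = 0.0626). These counts were the same with spike scaling.

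Auxin transport was represented by a single measured gene of 51 listed. WAG2, a kinase that phosphorylates PIN auxin exporters, read 7.27, 7.35 and 7.01 in Col-0 and 5.94, 5.98 and 5.66 in the mutant (-1.35 ± 0.12, adjusted p = 2.60e-06). Among 4 measured genes of auxin biosynthesis, YUC6, a flavin monooxygenase that makes IAA, was higher in the mutant. It read 3.49, 3.70 and 3.61 in Col-0 and 4.14, 4.12 and 3.91 in the mutant (0.46 ± 0.10, adjusted p = 0.00746). The other 3 were not called, although leaving out mutant array 2 raised the number called to 2.

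Both measured cytokinin response regulators of type A, which dampen cytokinin signalling, were lower. RR16 read 3.57, 3.75 and 3.95 in Col-0 and 1.97, 2.20 and 2.07 in the mutant (-1.68 ± 0.13, adjusted p = 5.78e-07). The mutant arrays are dim, and the difference with the mutant mean raised was -0.51. ARR15 read 4.69, 5.37 and 4.33 against 3.31, 3.57 and 3.84 (-1.23 ± 0.21, adjusted p = 0.00123), again with no overlap. The 4 other measured regulators, RR18, RR19, RR22 and RR23, lay between -0.01 and 0.15 and were not called. With spike scaling these 4 were called higher. Of the 6 measured regulators 5 had a mean over all 12 arrays under the dim level, which limits the differences that can be seen. RR16 was also lower in the mutant on DMSO (-0.67, adjusted p = 0.0103), and the difference was larger on IBA (test of the difference between media -1.01, adjusted p = 0.00316).

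**Figure D2:**
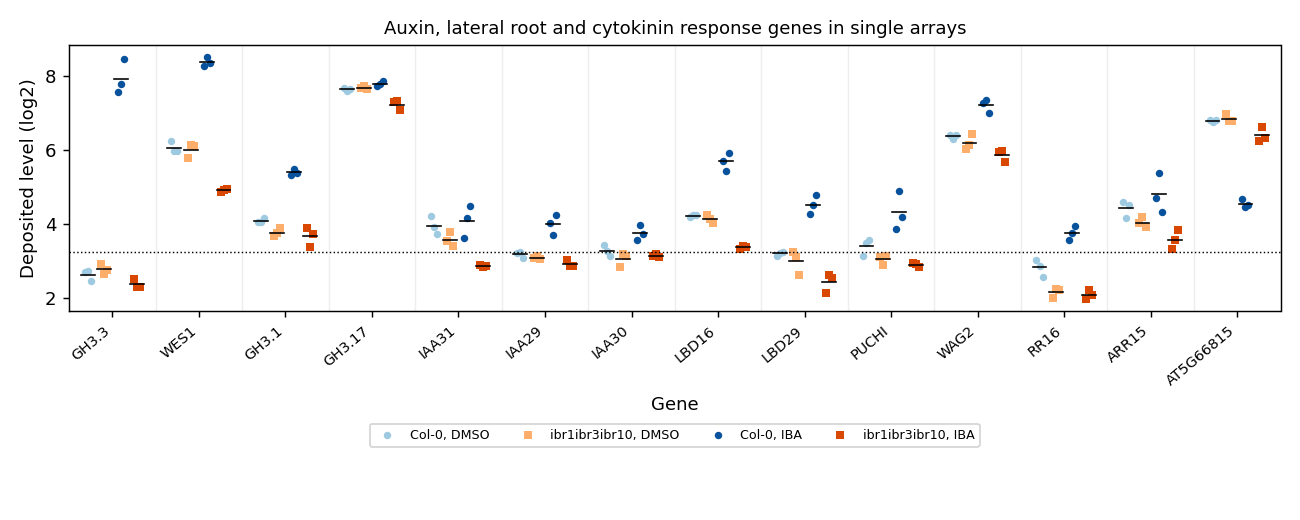
Deposited log2 level (vertical axis) of 14 genes of auxin inactivation, Aux/IAA repression, lateral root initiation, auxin transport and cytokinin response in every array of the 4 groups, with the group mean as a line and the dim level of 3.24 dotted. In 13 of the genes the mutant arrays on IBA lie below the Col-0 arrays on IBA, and in AT5G66815 they lie above; of these, GH3.17 and IAA30 were not called with spike scaling.

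In peroxisomal beta-oxidation and import, the pathway to which the mutated genes belong, 3 of 30 listed genes were measured and 1 was called. AIM1, a multifunctional beta-oxidation enzyme, differed by -0.13 (adjusted p = 0.382), and PEX4, an enzyme of peroxisomal protein import, by 0.02 (adjusted p = 0.945). Isocitrate lyase (ICL), an enzyme of the glyoxylate cycle, was higher: 4.68, 5.06 and 4.89 in Col-0 against 5.62, 5.70 and 5.96 in the mutant (0.88 ± 0.20, adjusted p = 0.00796). Its difference on DMSO was of similar size (0.75) but not called (adjusted p = 0.0662).

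Markers of hair-forming epidermis were lower in the mutant on IBA. All 5 measured markers of 20 listed were called lower, with a median of -0.91. AT1G34510 had the largest difference, with 7.88, 7.92 and 7.83 in Col-0 and 3.41, 3.84 and 3.00 in the mutant (-4.46 ± 0.18, adjusted p = 1.05e-09). Col-0 and mutant arrays were thus more than 3 log2 units apart in every pair, whereas on DMSO they differed by -0.70 (adjusted p = 0.0599). EXPA18, a root hair expansin, read 8.88, 8.78 and 9.01 against 7.53, 7.57 and 7.63 (-1.31 ± 0.09, adjusted p = 2.23e-07). GH9C1, a glucanase, read 8.58, 8.65 and 8.65 against 7.60, 7.85 and 7.70 (-0.91 ± 0.08, adjusted p = 2.98e-06). AT4G26010 (-0.39, adjusted p = 0.00238) and EXPA7 (-0.27, adjusted p = 0.0249) differed by less, and with spike scaling their differences turned to 0.01 and 0.13 and were not called. The call on EXPA7 was also lost without mutant array 1 (adjusted p = 0.0699) or 3 (0.10) and without Col-0 array 2 (0.0819) or 3 (0.064).

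Summed over the 5 markers on the linear scale, the log2 level was 11.35 to 11.46 in Col-0 on IBA and 10.64 to 10.77 in the mutant on IBA. On DMSO the ranges were 11.18 to 11.31 and 10.94 to 11.03. The 4 groups do not overlap, and the mutant on IBA is the lowest of them. In bulk root tips, fewer cells of a type and less RNA per cell cannot be told apart. The part of this marker shift in the other differences described here was not tested.

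The other marker lists were thin. The root cap marker AT1G65570 was higher in the mutant on IBA (6.73 to 7.19 in Col-0, 7.49 to 7.65 in the mutant; 0.66 ± 0.14, adjusted p = 0.00553). On DMSO it read 7.62 to 8.08 and 7.58 to 7.86. GSO1, a receptor kinase of the endodermis, stood at 0.32 (adjusted p = 0.0231), a call lost without Col-0 array 2 (adjusted p = 0.107) or mutant array 1 (0.105) or 3 (0.0598). AGL42 and BBM, marked in the stem cell niche, were not called (-0.23 and -0.22), and neither was the green tissue marker RCA, the activase of Rubisco (0.17). No listed xylem or phloem marker had a probe set that names it alone.

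Cell wall genes were split. For the wall gene counts below, the shares over all named genes were 4.42% lower and 5.56% higher. The root hair markers EXPA18, EXPA7 and GH9C1 are counted again among the wall genes. Xyloglucan endotransglucosylase/hydrolases (XTH) cut and rejoin the xyloglucan that ties cellulose together. XTH26 read 6.02, 6.20 and 6.09 in Col-0 and 2.43, 2.50 and 2.45 in the mutant, a 12.5-fold lower level (-3.64 ± 0.10, adjusted p = 1.93e-11; -2.86 with the dim mutant mean raised). XTH33 read 6.22, 6.10 and 6.00 against 4.20, 3.92 and 3.84 (-2.12 ± 0.13, adjusted p = 8.99e-08). XTH16 went the other way with 5.94, 4.91 and 5.70 in Col-0 and 7.26, 7.16 and 6.90 in the mutant (1.59 ± 0.19, adjusted p = 5.39e-05). The arrays did not overlap in any of the 3, and XTH33 alone of them was called on DMSO too (-0.71, adjusted p = 0.00989). XTH19 (-0.79, adjusted p = 5.11e-05) and XTH32 (-0.71, adjusted p = 0.000216) were also lower, the latter not with spike scaling (-0.31, adjusted p = 0.106). In all, 4 of 10 measured XTH genes were lower and 1 was higher, with a median of -0.07; with spike scaling 3 were lower and 4 higher.

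Expansins, which loosen walls without cutting them, likewise had members on both sides. Of 19 measured among 38 listed, 6 were lower and 3 were higher, with a median of 0.02 (2 lower and 11 higher with spike scaling). EXPA4 read 7.18, 7.34 and 7.56 in Col-0 and 6.53, 6.55 and 6.57 in the mutant (-0.81 ± 0.10, adjusted p = 9.37e-05). EXPA8 read 4.12, 3.92 and 3.76 in Col-0 and 5.33, 5.26 and 5.23 in the mutant (1.34 ± 0.09, adjusted p = 1.81e-07). On DMSO both genotypes read 5.18 to 5.40 in EXPA8, so it was Col-0 on IBA that lay low. EXPB1 showed the same order, with 7.26, 6.76 and 7.31 in Col-0 on IBA, 8.53, 8.27 and 8.37 in the mutant on IBA and 8.48 to 8.98 in both genotypes on DMSO (1.28 ± 0.14, adjusted p = 2.43e-05). EXLB1 (0.86, adjusted p = 0.000159) was the third member that was higher.

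Among 47 measured genes of wall polymer synthesis and turnover, 8 were higher and 5 lower (26 and 2 with spike scaling). CSLC12, of the family that makes the xyloglucan backbone, read 6.11, 6.35 and 5.97 in Col-0 and 4.49, 4.89 and 4.34 in the mutant (-1.57 ± 0.13, adjusted p = 1.14e-06). On DMSO its levels were 4.70 to 4.88 in both genotypes, so here Col-0 on IBA was the high group. The glucanase GH9C2 (-0.76, adjusted p = 6.68e-06) was lower with GH9C1, though not with spike scaling (-0.35, adjusted p = 0.0587). The glucanase GH9B13 (1.09 ± 0.11, adjusted p = 7.12e-06), the mannan synthase family member CSLA03 (0.70, adjusted p = 4.49e-05) and the wall acetylation genes TBL38 (0.61, adjusted p = 8.81e-05) and TBL37 (0.58) were higher. ATPMEPCRB, a pectin methylesterase, was the single called member of 4 measured pectin genes (-1.04 ± 0.12, adjusted p = 2.67e-05). Its mean was below the dim level in every group except Col-0 on IBA. Quantile normalization, a filter on dim probe sets and eBayes with trend each gave 2 lower pectin genes, and spike scaling gave 1 lower and 2 higher.

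**Figure D3:**
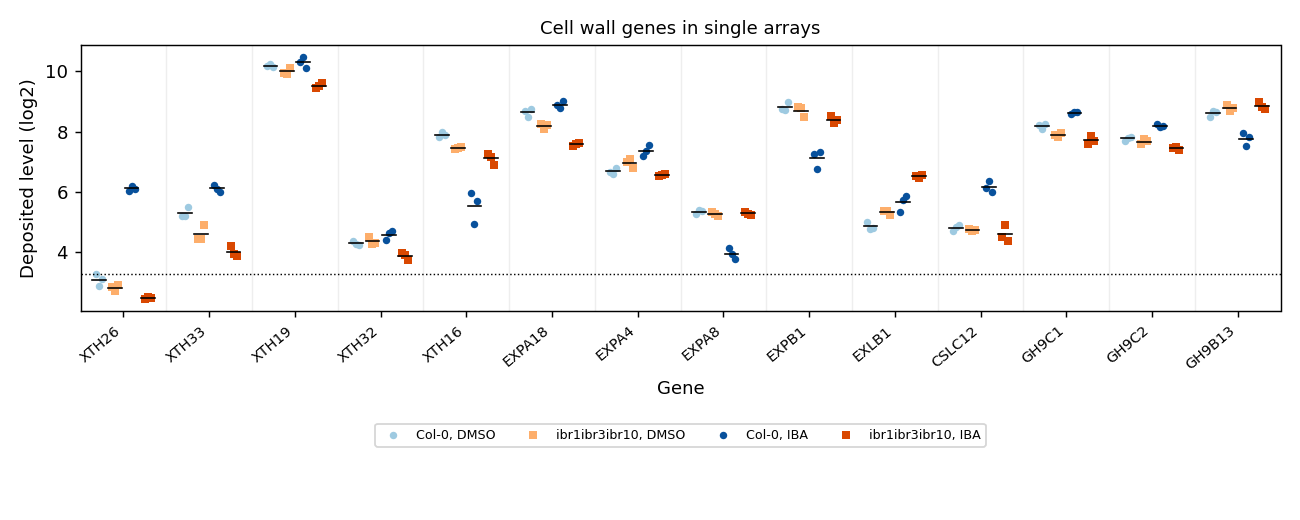
Deposited log2 level (vertical axis) of 14 cell wall genes in every array of the 4 groups, with the group mean as a line and the dim level of 3.24 dotted. XTH26, XTH33, EXPA18 and CSLC12 lie lower in the mutant on IBA than in Col-0 on IBA, and XTH16, EXPA8, EXPB1 and GH9B13 lie higher; with spike scaling XTH32 and GH9C2 were not called.

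Enzymes that modify small molecules gave single large differences inside families that mostly did not pass the test. The glycosyltransferase UGT76D1 read 5.62, 6.23 and 5.58 in Col-0 and 3.21, 3.66 and 3.86 in the mutant (-2.23 ± 0.17, adjusted p = 8.28e-07). The glutathione transferase GSTU20 read 6.02, 6.29 and 6.25 against 3.84, 4.42 and 4.34 (-1.98 ± 0.14, adjusted p = 2.85e-07). The cytochrome P450 gene CYP718 read 7.08, 6.98 and 6.61 against 5.43, 5.46 and 5.74 (-1.35 ± 0.15, adjusted p = 2.80e-05). None of these arrays overlap between genotypes, and none of the 3 genes was called on DMSO. On DMSO the 2 genotypes read 5.22 to 5.63 for GSTU20, so on IBA Col-0 lay above and the mutant below that range. BGLU46, a glucosidase of monolignols, was lower too (-0.82 ± 0.11, adjusted p = 0.000175).

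Most other members of these families were not called. For the counts that follow, the shares over all named genes were 4.42% lower and 5.56% higher. Of 51 measured UDP-glycosyltransferases 4 were lower and 3 higher, near those shares; 4 were called in all without mutant array 1 and 3 without Col-0 array 2. Of 13 measured glutathione transferases 2 were lower and 3 higher, among them GSTU27 (0.70, adjusted p = 0.000132) and GSTU28 (0.68, adjusted p = 0.000123). Of 24 measured cytochrome P450 genes 2 were lower and 5 higher, and leaving out any array except Col-0 array 2 brought the number called to 3 or 4. With spike scaling these 3 families gave 2, 1 and 1 lower and 28, 7 and 15 higher members. Serine carboxypeptidase-like genes had 2 lower and 4 higher members of 29 measured (19 higher with spike scaling), with scpl40 (0.77, adjusted p = 4.59e-05) and SCPL34 (0.75, adjusted p = 9.01e-05) the largest. Without mutant array 1 only 3 of these genes were called.

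Among genes of mitochondrial stress, 3 were higher in the mutant on IBA, and 3 were on DMSO. AT5G09570, in the list of such genes, read 3.90, 4.34 and 4.45 in Col-0 on IBA and 6.16, 6.10 and 6.26 in the mutant on IBA (1.94 ± 0.16, adjusted p = 1.34e-06). On DMSO it differed by 2.42 (adjusted p = 1.90e-06), and the difference between media was not called (-0.48, adjusted p = 0.274). NDB4, an alternative NAD(P)H dehydrogenase, differed by 0.56 on IBA (adjusted p = 0.00494) and 0.93 on DMSO (adjusted p = 0.000673). Formate dehydrogenase (FDH) read 4.89, 4.83 and 4.97 in Col-0 and 5.57, 5.80 and 6.12 in the mutant on IBA (0.93 ± 0.15, adjusted p = 0.000665), and was not called on DMSO (0.41, adjusted p = 0.216). Of 8 measured genes these 3 were higher and none lower, beside shares of 5.56% higher and 4.42% lower over all named genes. With spike scaling all 8 were called higher. AT2G21640 of the same list was called on DMSO (1.12, adjusted p = 0.000331) but not on IBA (0.20, adjusted p = 0.383).

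The largest higher difference of any named gene, in AT3G55920, was likewise there on both media. AT3G55920 read 2.71, 2.66 and 2.58 in Col-0 and 7.71, 7.60 and 7.69 in the mutant on IBA, a 32.4-fold higher level (5.02 ± 0.09, adjusted p = 2.55e-13). On DMSO it read 2.64, 2.90 and 2.98 in Col-0 and 7.67, 7.62 and 7.71 in the mutant (4.83, adjusted p = 4.33e-13). The Col-0 arrays are dim on both media, and with the Col-0 mean raised the difference on IBA was 4.43. The difference between media was 0.19 (adjusted p = 0.454), and each genotype held nearly the same level on both media. QQS, a gene known for its effect on starch content, was the counterpart on the lower side. It read 4.69, 4.59 and 4.81 in Col-0 and 2.40, 2.66 and 2.80 in the mutant on IBA (-2.07 ± 0.17, adjusted p = 1.23e-06). These mutant arrays are dim, and with the mutant mean raised the difference on IBA was -1.45. On DMSO QQS differed by -2.56 (adjusted p = 1.90e-06), and the difference between media was not called (0.49, adjusted p = 0.294).

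In all, 42 genes were higher and 30 lower in the mutant on both media without a called difference between media. After AT3G55920 and AT5G09570, the largest among the higher were AT4G36430 (1.26 on IBA and 2.06 on DMSO), AT2G43890 (1.23 and 0.91) and AT4G33420 (1.07 and 1.29). After QQS, the largest among the lower were AT5G24340 (-1.49 and -1.57, with -1.15 on IBA when dim means are raised), AT1G65370 (-1.43 and -1.16), AT5G49870 (-1.41 and -0.98) and AT1G66800 (-1.35 and -0.74). The arrays of both genotypes on IBA did not overlap in any of these 7 genes. The genotype comparisons on IBA and on DMSO share no array. Of the 272 genes called on DMSO, 93 were called in the same direction on IBA (34.2%), and 14 in the opposite direction. The 93 are 43 of the 743 genes higher on IBA (5.79%) and 50 of the 590 lower (8.47%).

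Most of the large differences depended on the medium. AT1G62510 read 5.58, 5.08 and 5.53 in Col-0 and 8.38, 8.35 and 8.55 in the mutant on IBA (3.03 ± 0.13, adjusted p = 1.31e-09), an 8.16-fold higher level. On DMSO both genotypes lay at 6.64 to 7.03, so on IBA Col-0 was below and the mutant above that range. AT1G14550 showed the same order, with 3.81, 3.89 and 4.67 in Col-0 and 6.59, 6.65 and 6.57 in the mutant on IBA, and 5.34 to 5.63 on DMSO (2.48 ± 0.17, adjusted p = 1.91e-07).

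AT4G01140 was different: it read 7.30 to 7.55 in both genotypes on DMSO, 7.44, 7.35 and 7.43 in the mutant on IBA, and 5.40, 4.85 and 5.39 in Col-0 on IBA (2.19 ± 0.12, adjusted p = 2.60e-08). Here the mutant on IBA lay within the DMSO range. AT2G41810 read 6.91, 5.42 and 5.36 in Col-0 and 8.35, 8.19 and 8.37 in the mutant on IBA (2.40 ± 0.34, adjusted p = 0.000252). Col-0 array 1 stands apart from the other two, which gives this gene its large error.

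Among the genes lower in the mutant, AT1G34330 read 5.90, 6.22 and 6.23 in Col-0 and 2.90, 3.16 and 3.07 in the mutant on IBA (-3.08 ± 0.13, adjusted p = 1.27e-09, and -2.88 with the dim mutant mean raised). On DMSO it was lower by less (-0.54, adjusted p = 0.04). AT4G25790 read 8.38, 8.46 and 8.43 against 5.02, 5.71 and 5.66 on IBA (-2.96 ± 0.14, adjusted p = 7.09e-09) and was also lower on DMSO (-0.86, adjusted p = 0.00444). AT2G39980 read 6.94, 7.35 and 7.03 against 4.77, 4.30 and 4.46 (-2.60 ± 0.13, adjusted p = 9.90e-09), with 4.21 to 4.76 in both genotypes on DMSO, so Col-0 on IBA was the group that lay apart.

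The rest of the 15 largest losses were AT1G64405 (-2.49), AT1G03820 (-2.46), AT1G60010 (-2.44), AT3G55720 (-2.37), AT3G01730 (-2.30) and AT1G33700 (-2.29), all with no overlap between arrays. The rest of the 15 largest gains were AT2G40250 (2.69, or 1.92 with dim means raised), AT4G25250 (1.98), AT3G59370 (1.83), AT1G49030 (1.73), AT1G71695 (1.66), AT4G22460 (1.55) and AT3G21680 (1.53). The files and the reference table name these loci by identifier alone.

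**Figure D4:**
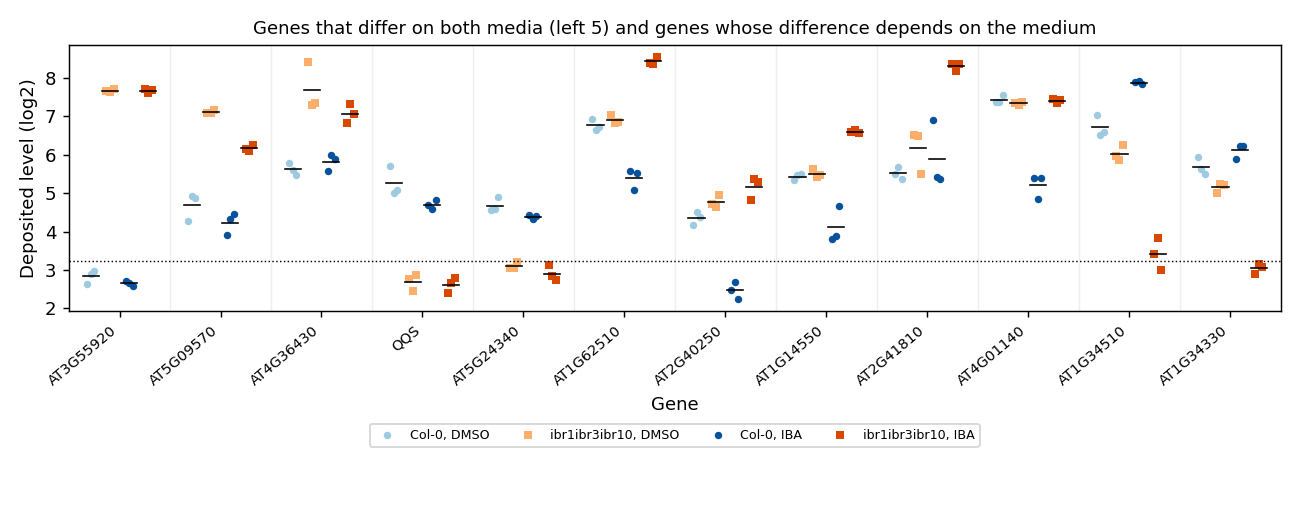
Deposited log2 level (vertical axis) of 12 genes in every array of the 4 groups, with the group mean as a line and the dim level of 3.24 dotted. In the left 5 genes the genotypes are apart on both media, with no called difference between media, and in the right 7 they are farther apart on IBA than on DMSO.

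Secreted peptide hormones included a pair of closely related genes with opposite differences. CLE44 and CLE41 encode the same kind of peptide, which keeps vascular stem cells dividing. CLE44 read 3.65, 4.06 and 4.66 in Col-0 and 2.87, 2.83 and 3.25 in the mutant (-1.14 ± 0.19, adjusted p = 0.00107; -0.88 with the mutant mean raised). CLE41 read 4.08, 4.10 and 4.32 in Col-0 and 4.78, 4.85 and 4.56 in the mutant (0.56 ± 0.12, adjusted p = 0.00599). Neither was called on DMSO (0.25 and 0.33). On IBA the mutant mean of CLE44 lies below the dim level, and all arrays of CLE41 lie above it. RALFL27 (0.56, adjusted p = 0.000525) and RALFL33 (0.46, adjusted p = 0.00414), of the RALF family that lowers cell expansion, were higher. RALFL22 of the same family was lower (-0.28, adjusted p = 0.0315). That call was lost without Col-0 array 1 (adjusted p = 0.115) or mutant array 1 (0.0651), 2 (0.0878) or 3 (0.081), and with spike scaling the difference turned to 0.13. Of 18 measured peptide genes 3 were higher and 2 lower (9 and 1 with spike scaling), beside shares of 5.56% and 4.42% over all named genes.

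Genes tied to microtubules had 6 higher and 2 lower members among 37 measured, with a median of 0.11 (28 higher and 1 lower with spike scaling). Over all named genes the shares were 5.56% higher and 4.42% lower. TRM26 read 5.90, 6.00 and 6.01 in Col-0 and 6.71, 6.92 and 6.71 in the mutant (0.81 ± 0.08, adjusted p = 8.43e-06). TRM28 of the same family read 6.35, 6.35 and 6.38 against 5.60, 5.59 and 5.16 (-0.91 ± 0.11, adjusted p = 4.68e-05). The calmodulin-binding IQD19 (0.64, adjusted p = 0.000129), iqd33 (0.58) and IQD23 (0.52) were higher. That list holds IQD and TRM proteins and tubulins, and ATMAP65-6 and the actin gene ACT11 are of other kinds. ATMAP65-6 read 7.11, 7.17 and 7.28 in Col-0 and 8.19, 8.03 and 7.96 in the mutant (0.87 ± 0.08, adjusted p = 6.12e-06). ACT11 read 7.38, 6.98 and 7.30 in Col-0 and 8.11, 8.16 and 8.07 in the mutant (0.89, adjusted p = 1.52e-05). On DMSO ATMAP65-6 read 7.80 to 8.01 and ACT11 8.25 to 8.58, so in both genes Col-0 on IBA was the low group.

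Several more genes with a symbol were among the largest differences. MSRB9, a methionine sulfoxide reductase, read 10.16, 9.99 and 10.21 in Col-0 and 11.27, 11.24 and 11.24 in the mutant (1.13 ± 0.08, adjusted p = 2.23e-07), against 11.25 to 11.53 on DMSO. The transcription factor TCP15 was higher by 0.80 ± 0.13 (adjusted p = 0.000811) and the pirin gene PRN by 0.86 ± 0.09 (adjusted p = 9.84e-06). JAL22, a jacalin-type lectin, read 5.37, 6.32 and 6.39 in Col-0 and 4.01, 4.64 and 4.22 in the mutant (-1.73 ± 0.22, adjusted p = 0.000105). On DMSO JAL22 lay the other way (0.65) without passing the test (adjusted p = 0.182). The tetraspanin TET12 was lower (-0.96 ± 0.12, adjusted p = 7.52e-05) and the calmodulin-like CML42 higher (0.71 ± 0.10, adjusted p = 0.000253).

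The counts of other functions stand beside shares of 4.42% lower and 5.56% higher over all named genes. None of 9 measured genes of DNA replication and histones was called, and their median was 0.00 (0.41 over all named genes with spike scaling, where 6 of the 9 were called). Of 7 measured WRKY factors 3 were lower by 0.26 to 0.59, and without Col-0 array 3 or mutant array 3 only 1 was called; with spike scaling none was lower and 3 were higher. Of 42 measured MADS box genes 34 had a dim mean, and 1, AGL46, was called (0.36). Its arrays all lie under the dim level, so that its difference is 0.00 with dim means raised, and the call was lost without mutant array 1 (adjusted p = 0.0608). With spike scaling 27 MADS box genes were called higher. Of 37 vesicle trafficking genes 4 were higher, with 2 called without Col-0 array 2 and 26 higher with spike scaling. Among autophagy genes ATG8G was lower (-0.40, adjusted p = 0.00272; 0.00 with spike scaling), and AT5G66930 was higher (0.42), a call lost without Col-0 array 1 or 2 or mutant array 1 or 3 (adjusted p = 0.07 to 0.116). The other 9 measured were not called, and with spike scaling 7 autophagy genes were higher and none lower. The SAUR, ABC transporter, MYB, AP2/ERF, cyclin and aquaporin lists matched no measured gene by these rules and were not analysed as lists. Single genes of such families can still be measured, as PUCHI, an AP2-type factor, was.

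**Figure D5:**
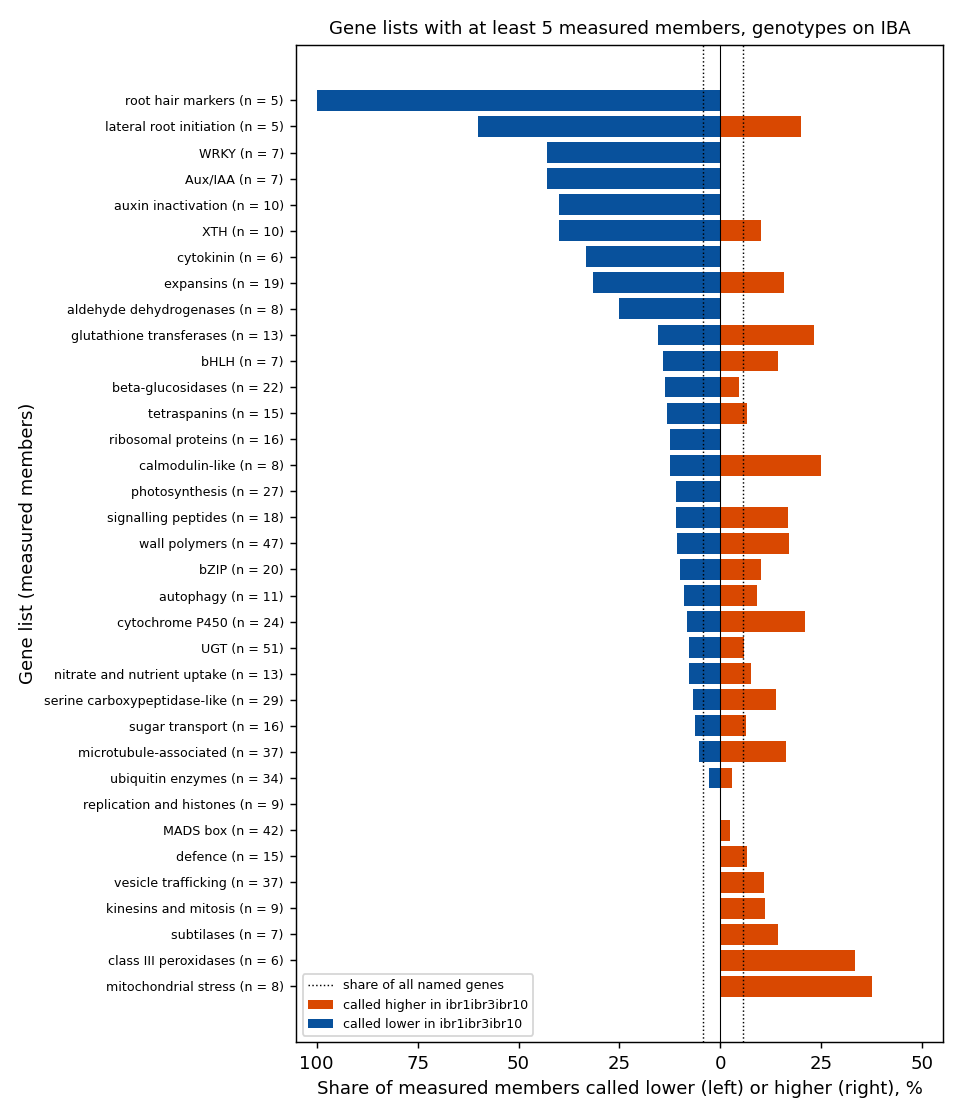
Share of the measured members of each gene list with at least 5 of them that were called lower (left, blue) or higher (right, orange) in the mutant on IBA, in percent, with the shares of all named genes dotted (4.42% lower, 5.56% higher). Root hair markers, lateral root initiation, WRKY, Aux/IAA, auxin inactivation and XTH genes have the largest lower shares, from few members each; with spike scaling higher calls outnumber lower ones in every list shown except root hair markers and lateral root initiation.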

How the data were processed

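RNA of 12 samples, 3 in each of 4 groups, was measured on 1-colour Affymetrix ATH1 arrays. An input of 100 ng, with bacterial transcripts added, was amplified from the 3' end, per the labels' protocols. The deposited log2 values, from 1.40 to 13.44, were made by the authors with RMA (affy 1.40.0), as the submitters' processing notes record. RMA gives all arrays the same distribution of probe intensities before it summarises probe sets, so a shift of most transcripts 1 way would be largely hidden. The medians of the deposited values still ran from 5.17 to 5.29. Arrays have no read depth, and 3 arrays a group limit the precision. No arrays held identical values. Titles of DMSO samples say 0 h and titles of mutant samples say ibr3; the 6 h and the triple mutant of their other labels were used.

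Of 22810 probe sets, 64 controls were left out. GEO's platform annotation names 1 gene for 13513 of the others, several for 503 and none for 8730; only the first kind was named. RefSeq supplied current symbols and lacked 77 identifiers, and 11798 genes have a locus name alone. The probe set with the highest mean stood for a gene. Group means were fitted in R 4.3.3 with limma 3.58.1, by lmFit and then eBayes (residual degrees of freedom 8, prior 5.62), and adjusted over all tested probe sets. The dim level of 3.24 is the 30th percentile of probe set means, a rank and not a measured background.

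Named genes are the 15 largest non-overlapping called differences in each direction, the 5 largest in each direction on both media or with a called difference between media, and up to 5 members of each of 65 lists with the smallest p. The 15 largest in each direction with a symbol, and 9 family lists taken by their number of measured genes, were added after the annotation was seen, and some further list members are named by their values. Genes and lists were chosen with earlier results of these data known. Alternatives were a replicate block (also within media), median centring, quantile normalization, scaling to 24 spike probe sets, a filter on dim probe sets, eBayes with trend, array weights, testing genes by a single probe set, fitting the compared groups alone, a minimum of 1 log2 unit, raised dim means and leaving out each array. On simulated data for the genotype difference on IBA, over 22746 probe sets, 71.6% of changes of 0.5 log2 units, 97.0% of 1 and 100.0% of 2 were recovered, with 10 false calls among 189.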

Additional observations from a re-analysis of the deposited data

Results flagged for a closer look

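The genotype differences on the 2 media differed by the test of the difference itself at 1478 probe sets (6.50% of those tested), of which 672 differed upwards and 806 downwards. The 5 genes in each direction with the largest differences on IBA, among those called both on IBA and for the difference between media, are given here. The IBA difference less the DMSO difference was -5.72 for GH3.3, -3.76 for AT1G34510, -3.43 for WES1, -3.38 for XTH26 and -2.54 for AT1G34330. On the higher side it was 2.89 for AT1G62510, 2.41 for AT1G14550, 2.28 for AT4G01140, 2.27 for AT2G40250 and 1.75 for AT2G41810. In AT2G41810 it was barely called (adjusted p = 0.0458), and Col-0 array 1 on IBA (6.91) stood above the other two (5.42 and 5.36).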

How the results depend on the processing

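The count called on IBA stayed within 1.5 times of 2508 under every alternative run except spike scaling, testing 1 probe set per gene and a minimum size. With spike scaling 13372 probe sets were called on IBA in place of 2508 (97.4% higher in place of 53.9%), 207 on DMSO in place of 550, 11874 for the difference between media in place of 1478 (98% higher in place of 45.5%), and 395 list members in place of 135. Testing 1 probe set per gene left 13355 tests in place of 22746 and gave 1280, 248 and 734 calls. In the main fit 1333, 272 and 767 of these genes were called. A minimum of 1 log2 unit gave 369, 79 and 384 probe sets. Leaving out 1 array gave 1862 to 2683 calls on IBA, 277 to 468 on DMSO, 1109 to 1620 for the difference between media and 104 to 134 list members. On DMSO the count fell by over 1.5 times without mutant array 1 (277) or 2 (363) and without Col-0 array 2 (357) or 3 (298). Median centring moved the split of the difference between media to 888 higher and 666 lower, and that on DMSO to 335 and 187. Differences that reversed with spike scaling, none of them called there, were ALDH2C4 (0.10), AT4G03090 (0.05), AT4G26010 (0.01), ATG8G (0.00), BGLU15 (0.17), CML23 (0.06), EXPA7 (0.13), GH9B8 (0.02), RALFL22 (0.13), UBC30 (0.05), UGT84A1 (0.02), WRKY6 (0.15), psbB (0.02) and scpl28 (0.03). Of 170 called genes that were named or listed, 27 more lost their call with spike scaling, 25 with the compared groups alone, 10 with array weights and 14 to 32 when 1 array was left out. The cause was not tested.

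Same-numbered arrays of both genotypes deviated together by r = 0.06, 0.17 and 0.02 on IBA, so the numbers were not taken to pair samples. With a replicate block 2474 probe sets were called on IBA, 472 on DMSO and 1440 for the difference between media, with 131 list members. With the block within each medium the counts were 2476, 574, 1494 and 135. Dim probe sets limit the size of differences: with dim means raised, 17 of 170 genes moved by more than their spread.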

Other observations

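Transcripts of the plastid genome were mostly slightly below their Col-0 level in the mutant on IBA, and few were called. Plastid genes were grouped after plastid members of the photosynthesis and ribosomal lists were seen to be lower, so the group has no test of its own. Of 69 measured plastid genes 57 had a negative difference, beside 6574 of 13355 over all named genes. Of the 69, 8 were called lower (11.6%, against 4.42% of all named genes) and none higher, with a median of -0.14. On DMSO their median was 0.05. The called genes were rpl20 (-1.22), atpH (-0.68), psaB (-0.55), ycf4 (-0.54), psbA (-0.53), rps15 (-0.52), psbB (-0.39) and rbcL (-0.35), which encode parts of the plastid ribosome, ATP synthase, both photosystems and Rubisco and, in ycf4, an assembly factor of photosystem I. All arrays of psbB lie under the dim level, and its difference is 0.00 with dim means raised. With spike scaling 18 were higher, 1 was lower, the median was 0.27 and only 9 of the 69 had a negative difference. Leaving out 1 array gave 2 to 10 lower genes, with 2 without Col-0 array 2, 3 without mutant array 2 or 3, and 4 without Col-0 array 1. Of 22 measured mitochondrial genes 1 was lower, with a median of -0.06.

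Genes near the mutated loci were counted as well. Among the 50 annotated genes on each side of IBR1, 33 were measured and 3 were called on IBA (9.09%). Around IBR3 8 of 55 were called (14.5%) and around IBR10 6 of 38 (15.8%), against 9.98% of all named genes. Calls in the same direction on both media were 1 of 33 near IBR1, 1 of 38 near IBR10 and none near IBR3. Over all named genes they were 93 of 13355. The 2 genes were AT4G05070 near IBR1 (-1.07 on IBA and -0.58 on DMSO) and AT4G14270 near IBR10 (-1.29 and -1.22).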
